A study of Mus musculus with 12 samples.

Results

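The endothelial genes described here are 37 genes that mark the cells lining blood and lymphatic vessels. They were chosen by name from a list of receptors, ligands, transcription factors, junction and surface proteins and secreted proteins of vessels. No rule on measured values was used, but earlier results of these data were known. All 37 were found among the 24391 gene symbols of the count files, and all 37 passed the filter on low counts, as did 15958 genes in all. The tissue is the palatal shelf, from which the palate is built, taken at E13.5 from C57BL/6 embryos for RNA-seq. The anterior and the posterior part of the shelves came from controls or from tamoxifen-treated mice, which gave 4 groups of 3 libraries: anterior controls, anterior tamoxifen, posterior controls and posterior tamoxifen. Tamoxifen is a selective oestrogen receptor modulator. Its dose and time, the treatment of the controls, the sex of the embryos and the number of embryos per library are not stated in the labels. Nor do they say whether replicates came from separate animals or whether both parts came from the same embryos, so a p-value speaks only to the spread among these libraries. The shelves were not sorted, so vessel cells are a part of each sample. The members' levels can reflect the number of such cells, the RNA in each and expression in other cells. These cannot be told apart in bulk tissue.

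Vessels grow by signals that endothelial cells read at their surface. VEGF binds the receptor tyrosine kinases Kdr and Flt1, VEGF-C binds Flt4, and the angiopoietins bind Tek, whose relative Tie1 has no well-established ligand of its own. ETS factors such as Erg and Fli1 and the SoxF factors Sox7, Sox17 and Sox18 keep the endothelial programme on, and Prox1 directs the lymphatic lineage. Cadherin-5, Pecam1, claudin-5 and Esam join the cells to each other. In the growing palate, vessels run through neural crest-derived mesenchyme.

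Every member was present in every library, with at least 42 raw counts. Levels are TMM-scaled CPM, which corrects for the depth of each library, and genes are compared with each other as CPM per kilobase of transcript (CPM/kb). By the mean over 12 libraries Plvap, a protein of the diaphragms of fenestrated vessels, stood at 43.1 CPM/kb and Cdh5, the cadherin of endothelial junctions, at 41.4 CPM/kb. Cldn5 (28.6), Ramp2 (27.8), Egfl7 (26.9) and Pecam1 (23.9 CPM/kb) followed. At the other end stood Prox1 at 0.91, Esm1, a product of sprouting tip cells, at 0.701 and Angpt2, an antagonist of Tek, at 0.484 CPM/kb. The defining vessel genes Cdh5, Pecam1, Kdr, Tek and Tie1 were thus all measured, between 20.8 and 205 CPM. Transcript lengths of the members ran from 1282 bases (Icam2) to 8834 bases (Vwf), with a median of 3422 against 3307 bases over the genes tested.

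In the anterior shelf the members split under tamoxifen: of 37, 14 were higher, 11 lower and 12 not called. A call needed an adjusted p under 0.05 in the quasi-likelihood test of edgeR, where Benjamini-Hochberg adjustment ran across every tested gene. The background was high, since 25.6% of all genes tested were called higher and 24% lower, beside 37.8% and 29.7% of the members. The median log2 fold change of the members was 0.07, beside -0.02 over all genes. In the posterior shelf 13 were higher, 3 lower and 21 not called. That is 35.1% and 8.11% of the members, beside 17.3% and 11.7% of all genes, and the medians were 0.12 and 0.02. The 13 members higher posteriorly were all among the 14 higher anteriorly (15.4% of all genes were called higher in both parts), and the 3 lower ones, Cldn5, Egfl7 and Ramp2, were all among the 11 (10.7%). The summed level of the members overlapped between treatments in the anterior shelf, at 1349 to 1478 CPM in controls and 1376 to 1505 CPM under tamoxifen. Posteriorly it did not overlap, at 1415 to 1534 CPM and 1551 to 1662 CPM. Counted by overlap alone, every tamoxifen library lay above every anterior control for 14 members and below for 14, beside 28.7% and 27.8% of all genes tested. Posteriorly these were 16 and 4 members, beside 26.5% and 21.5%.

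The split followed transcript length. Over 15844 genes with a known length, the log2 fold change under tamoxifen had a Spearman correlation with length of 0.54 in the anterior and 0.48 in the posterior shelf, and with GC content of -0.52 and -0.41. Over the 37 members these were 0.72 and 0.58 with length, and -0.69 and -0.63 with GC content. All points of such a correlation come from the same libraries, and genes are not independent replicates. Of the 26 members longer than 3000 bases, 14 rose and 3 fell anteriorly, and 13 and 0 posteriorly. Of the 11 shorter ones 0 rose and 8 fell anteriorly, and 0 and 3 posteriorly. The share of all genes called within each length class was not counted, so these counts do not set the members apart from the trend over all genes. In each library the deviation from the mean of all libraries also ran with length, with correlations of -0.59 to -0.23 among the 6 control libraries and of 0.35 to 0.47 among the 6 from tamoxifen-treated mice. The trend and the treatment therefore coincide, and a change of the tissue and a change of the libraries cannot be told apart by it.

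For this reason the counts of calls and the values of many members are also given after a smooth trend with length and GC content was taken out of every library. In the anterior shelf 10 members were then higher and 5 lower, beside 16.1% and 16.7% of all genes. In the posterior shelf 10 were higher and 1 lower, 27% and 2.7% beside 7.71% and 10.2%. The medians were 0.09 and 0.15, beside 0.01 and -0.0040 over all genes. Of the 14 anterior rises 10 were kept, and of the 11 falls 4. Over all genes the share of calls kept was not counted. A core of 9 members was higher in both parts with and without the trend, namely Pecam1, Cdh5, Flt1, Tek, Erg, Gja5, Clec14a, Cd93 and S1pr1. All 9 were among the 26 longer members. In the fit without the trend, 10 of the 26 were higher and 3 lower anteriorly, and 10 and 1 posteriorly. Of the 11 shorter members 0 were higher and 2 lower anteriorly, and 0 and 0 posteriorly. A split by length thus remained among the rises. Over the members the correlation with length was then 0.19 and 0.14, and with GC content -0.27 and -0.18. With the trend removed, 5.8% of all genes were called higher in both parts and 8.44% lower, and 0 members were lower in both.

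**Figure D1:**
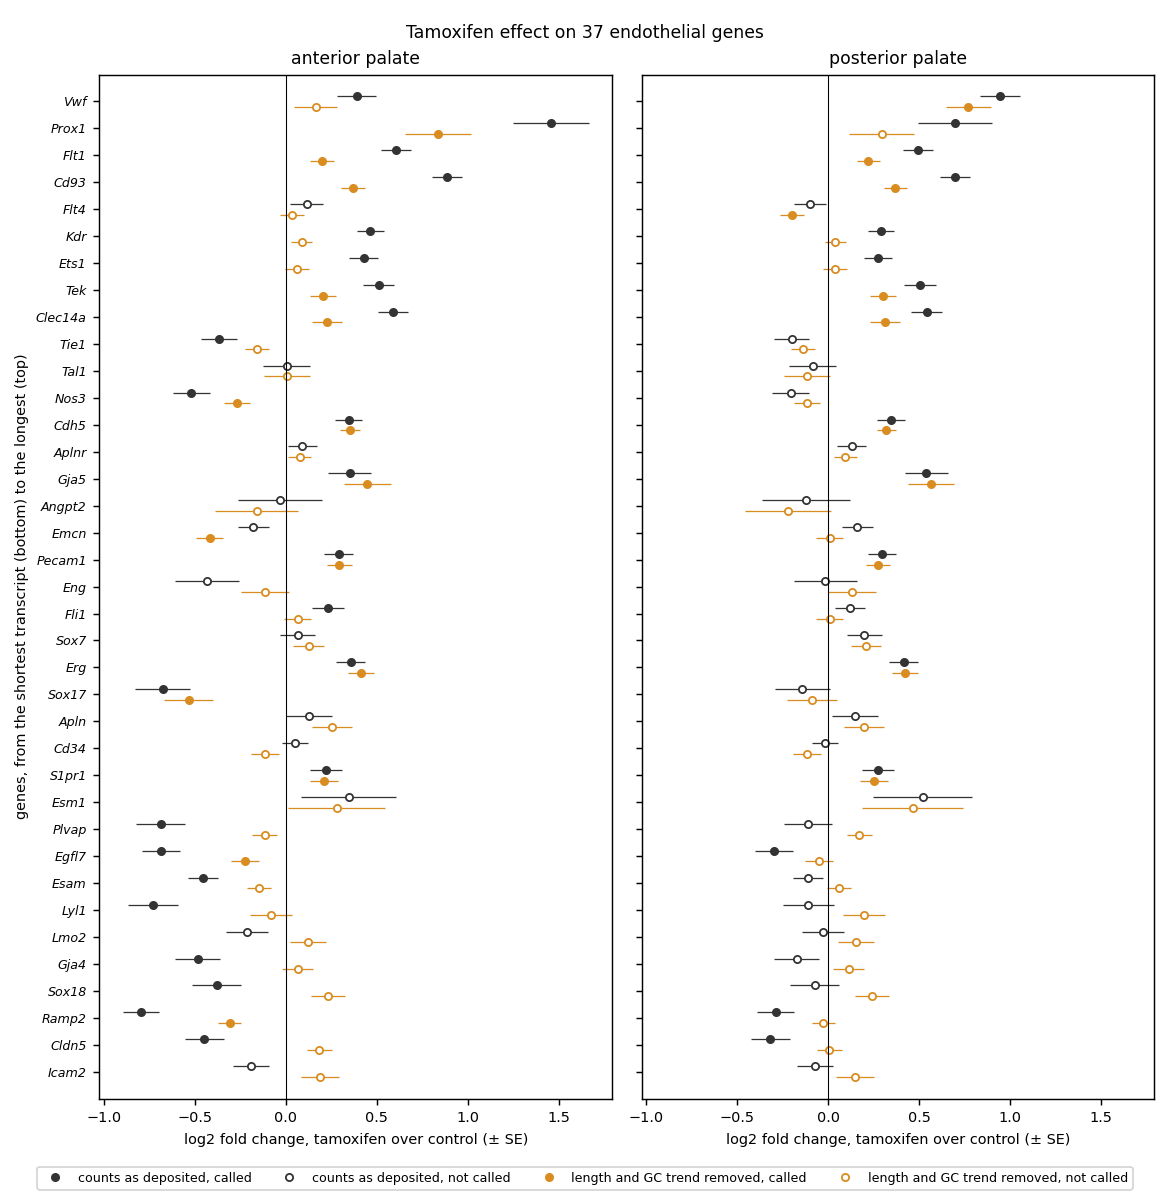
Log2 fold change of tamoxifen over control (x axis, bars are SE) for the 37 endothelial genes in the anterior (left) and posterior (right) palate, ordered by transcript length from bottom to top. Black points use the counts as deposited, orange points the fit with the length and GC trend removed, and filled points passed the test. The black points lean to the left for short and to the right for long transcripts, while the 9 genes of the core stay on the right in both colours and both panels.

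Among the receptors, Tek, which binds angiopoietins, was measured at 24.9, 24.8 and 20.8 CPM in anterior controls and at 34.5, 33.0 and 33.0 CPM under tamoxifen. Posteriorly it stood at 26.3, 25.5 and 22.9 CPM and at 35.8, 35.7 and 34.5 CPM. Every tamoxifen library lay above every control, a 1.42-fold rise in each part (adjusted p = 0.00017 and 0.00092). Without the trend its log2 fold change went from 0.51 to 0.20 anteriorly and from 0.51 to 0.30 posteriorly, still called. Flt1, a VEGF receptor that also acts as a decoy, went from 23.1, 22.6 and 19.5 to 34.1, 32.2 and 33.0 CPM anteriorly. In the posterior shelf it went from 24.7, 26.3 and 23.2 to 35.9, 33.8 and 34.8 CPM. These are rises of 1.52-fold and 1.41-fold (adjusted p = 3.0e-05 and 0.00086), and the log2 fold changes, 0.61 and 0.49, became 0.20 and 0.22 without the trend.

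Kdr, the main signalling receptor for VEGF, stood at 65.0, 74.7 and 64.1 CPM in anterior controls and at 94.7, 94.5 and 92.2 CPM under tamoxifen. The posterior values were 87.0, 89.6 and 83.3 CPM and 100.3, 109 and 108 CPM. The groups did not overlap, and Kdr was called in both parts (1.38-fold and 1.22-fold). Its log2 fold changes of 0.47 and 0.29 shrank to 0.09 and 0.04 without the trend, where it was called in neither part (adjusted p = 0.26 and 0.67). Tie1 moved the other way. It fell from 92.5, 103 and 116 to 83.0, 76.6 and 81.4 CPM anteriorly (1.29-fold, adjusted p = 0.0050). Posteriorly, controls at 103, 97.7 and 97.7 CPM and tamoxifen libraries at 72.7, 94.6 and 92.2 CPM did not overlap either, but gave no call (log2 fold change -0.20, adjusted p = 0.13). Without the trend the anterior call of Tie1 was lost as well (-0.16, adjusted p = 0.081).

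Flt4, the receptor for VEGF-C, gave no call in either part (0.12 and -0.10), and with the trend removed it was lower posteriorly (-0.20, adjusted p = 0.042). S1pr1, the receptor for the lipid S1P, rose from 26.8 ± 1.76 to 31.2 ± 2.15 CPM anteriorly and from 24.2 ± 2.22 to 29.3 ± 0.741 CPM posteriorly (mean ± SD, n = 3). Its adjusted p of 0.049 and 0.029 lay close to the threshold. Ramp2, the partner protein of the adrenomedullin receptor, had the largest anterior fall of the members. It went from 39.8, 42.3 and 51.2 to 26.0, 23.7 and 27.1 CPM (1.74-fold, adjusted p = 1.5e-05), and posteriorly from 55.5, 49.7 and 50.9 to 38.0, 46.4 and 43.4 CPM (1.22-fold, adjusted p = 0.041). Without the trend the anterior fall was kept (-0.31, adjusted p = 0.0014) and the posterior one was not (-0.03, adjusted p = 0.81). Eng, a TGF-beta co-receptor, stood at 69.4, 75.7 and 87.8 CPM in anterior controls and 65.1, 38.5 and 68.7 CPM under tamoxifen. The groups did not overlap, but 1 tamoxifen library lay far below the others and no call was made (adjusted p = 0.054). Exons of Eng overlap those of Fpgs on the other strand. Aplnr, Apln and Angpt2, the apelin receptor, its ligand and the Tek antagonist, gave no call in either part, with log2 fold changes between -0.12 and 0.15.

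**Figure D2:**
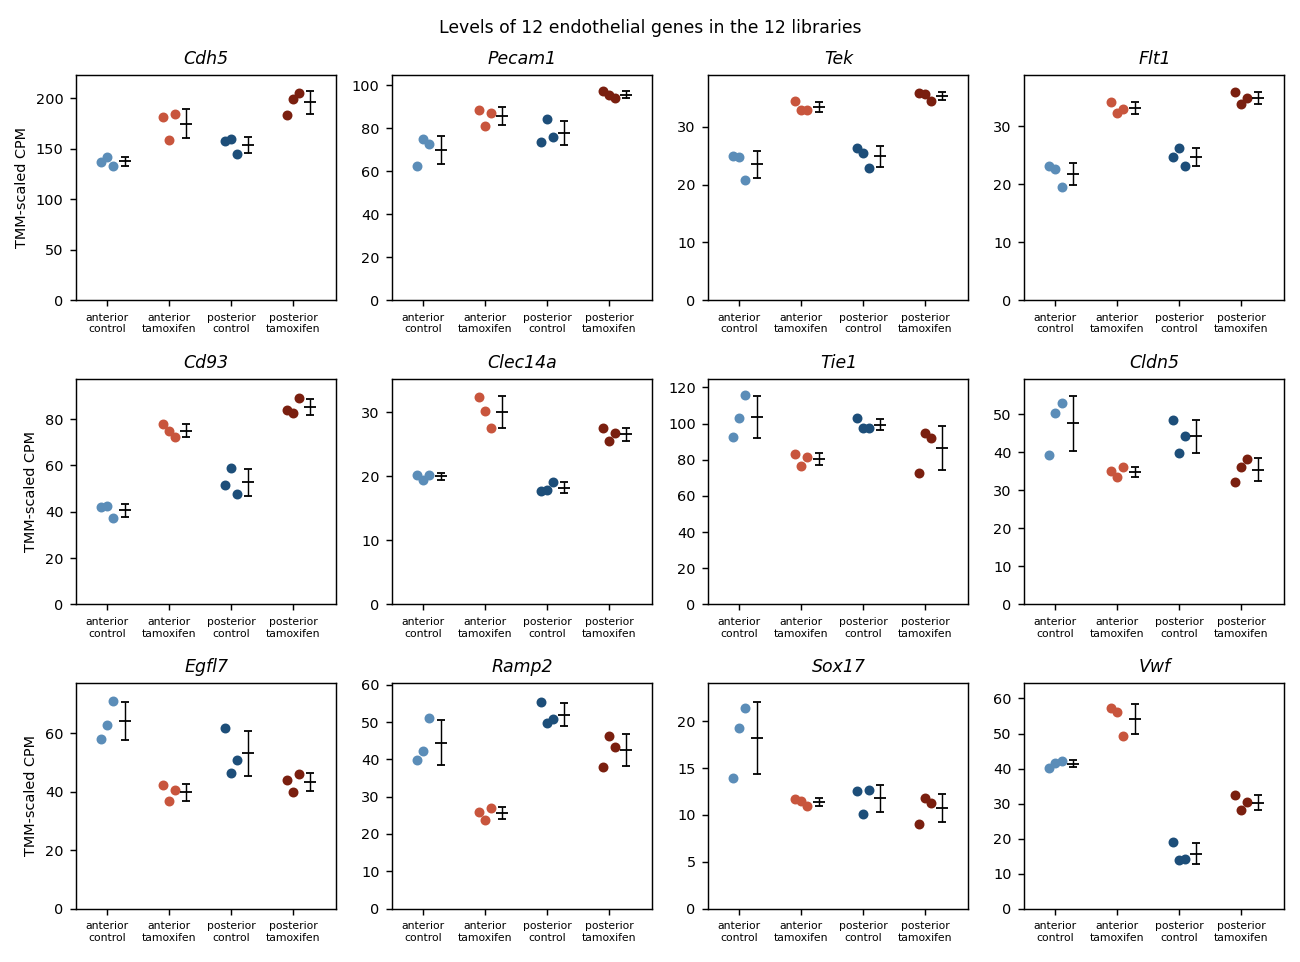
Levels of 12 endothelial genes in TMM-scaled CPM (y axes from 0) in each of the 12 libraries (points) with the mean and SD of each group of 3 (black). Cdh5, Pecam1, Tek, Flt1, Cd93 and Clec14a lie higher in both tamoxifen groups, Tie1, Cldn5, Egfl7 and Ramp2 lie lower, and Vwf stands higher in the anterior than in the posterior shelf.

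Among the junction and surface proteins, Cdh5 stood at 137, 142 and 133 CPM in anterior controls and at 182, 158 and 184 CPM under tamoxifen. Posteriorly it stood at 157, 160 and 145 CPM and at 184, 199 and 205 CPM. It rose 1.27-fold in each part (adjusted p = 0.0012 and 0.0039), and its log2 fold changes of 0.35 and 0.35 were 0.35 and 0.32 without the trend. Pecam1, an adhesion molecule of endothelium and platelets, went from 62.5, 74.9 and 72.4 to 88.6, 81.0 and 87.1 CPM anteriorly and from 73.3, 84.2 and 75.7 to 97.2, 95.3 and 94.1 CPM posteriorly. The rises were 1.22-fold and 1.23-fold, without overlap, and moved little when the trend was removed (0.29 and 0.30 against 0.29 and 0.28).

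Cd93, a lectin-like surface protein of sprouting endothelium, had the smallest adjusted p of the members in the anterior shelf. It went from 41.9, 42.5 and 37.4 to 77.9, 74.9 and 72.3 CPM there (1.85-fold, adjusted p = 1.6e-06) and from 51.6, 58.9 and 47.5 to 83.9, 82.7 and 89.3 CPM posteriorly (1.62-fold, adjusted p = 0.00022). Its log2 fold changes of 0.89 and 0.70 were 0.37 in each part without the trend, still called. Its relative Clec14a went from 20.2, 19.4 and 20.3 to 32.4, 30.1 and 27.5 CPM anteriorly and from 17.6, 17.9 and 19.1 to 27.5, 25.5 and 26.7 CPM posteriorly. That is 1.5-fold and 1.46-fold, and 0.22 and 0.31 on the log2 scale without the trend.

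The gap junction genes of arteries parted. Gja5, connexin 40, rose from 18.4, 19.9 and 19.3 to 23.9, 28.6 and 21.0 CPM anteriorly and from 21.2, 18.9 and 17.2 to 31.2, 26.8 and 25.3 CPM posteriorly (1.28-fold and 1.45-fold, adjusted p = 0.021 and 0.0039). Without the trend its log2 fold changes were 0.45 and 0.57, called in both parts. Gja4, connexin 37, fell from 20.0, 23.5 and 28.3 CPM to a range of 16.1 to 18.2 CPM anteriorly (1.40-fold, adjusted p = 0.0040) and had no call posteriorly. Its anterior value changed sign without the trend, from -0.48 to 0.07 (adjusted p = 0.59). Gja5 shares exon sequence with Gpr89 on the other strand, and since the strand setting of the counting is not stated, part of its counts cannot be told apart from Gpr89.

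Cldn5, the main claudin of endothelial tight junctions, fell from 39.3, 50.3 and 53.0 to 35.2, 33.4 and 36.0 CPM anteriorly and from 48.5, 39.7 and 44.2 to 32.1, 36.1 and 38.1 CPM posteriorly. These falls of 1.36-fold and 1.25-fold (adjusted p = 0.0025 and 0.036) did not persist without the trend, where the log2 fold changes were 0.18 and 0.0067 and neither was called. Esam and Plvap fell anteriorly by 0.46 and 0.69 on the log2 scale, and by 0.15 and 0.12 without the trend, where neither was called. Icam2, Cd34 and Emcn gave no call as deposited. Emcn, a sialomucin of veins and capillaries, lay at 23.7, 26.0 and 23.6 CPM in anterior controls and 21.5, 21.5 and 21.7 CPM under tamoxifen, but at 21.3, 23.0 and 23.0 CPM in posterior controls and 27.6, 23.7 and 24.0 CPM under tamoxifen. It was the 1 member whose groups did not overlap in opposite directions in both parts. The share of all genes tested with this pattern was not counted. The difference between the anterior and posterior effects on Emcn was not called in the edgeR test (adjusted p = 0.30). Without the trend it was lower anteriorly (-0.42, adjusted p = 0.00044) and near 0 posteriorly (0.0089).

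RefSeq promoter sequences (GRCm38.p6) were at hand for 19 of the 37 members, in 25 windows. The 250 bases upstream of the start are shown for Flt1, Tek, Gja5 and Clec14a, since these 4 rose in both parts with and without the trend and had a single window each. The authors' build is mm9, so these coordinates belong to the sequence table and not to the count files. Capitals mark GGAA, the core bound by ETS factors, and ACAAAG, one form of the SOX site, on either strand (the reverse of each reads TTCC and CTTTGT).
Flt1, GRCm38.p6, chr5:147726012-147726261, minus strand: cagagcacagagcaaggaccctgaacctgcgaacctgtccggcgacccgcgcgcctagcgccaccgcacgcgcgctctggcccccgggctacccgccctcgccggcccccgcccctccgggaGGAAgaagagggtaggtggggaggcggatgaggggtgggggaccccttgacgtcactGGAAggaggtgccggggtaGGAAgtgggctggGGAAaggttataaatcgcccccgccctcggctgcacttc
Tek, GRCm38.p6, chr4:94739039-94739288, plus strand: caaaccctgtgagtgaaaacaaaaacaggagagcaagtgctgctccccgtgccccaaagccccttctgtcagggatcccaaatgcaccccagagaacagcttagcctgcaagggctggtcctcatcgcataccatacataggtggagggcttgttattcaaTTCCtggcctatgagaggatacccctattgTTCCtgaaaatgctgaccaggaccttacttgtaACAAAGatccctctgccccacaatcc
Gja5, GRCm38.p6, chr3:97032152-97032401, plus strand: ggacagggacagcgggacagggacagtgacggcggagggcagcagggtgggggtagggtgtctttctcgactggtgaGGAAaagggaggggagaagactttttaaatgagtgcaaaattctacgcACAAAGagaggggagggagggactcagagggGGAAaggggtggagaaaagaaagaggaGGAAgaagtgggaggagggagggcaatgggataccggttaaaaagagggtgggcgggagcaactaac
Clec14a, GRCm38.p6, chr12:58269259-58269508, minus strand: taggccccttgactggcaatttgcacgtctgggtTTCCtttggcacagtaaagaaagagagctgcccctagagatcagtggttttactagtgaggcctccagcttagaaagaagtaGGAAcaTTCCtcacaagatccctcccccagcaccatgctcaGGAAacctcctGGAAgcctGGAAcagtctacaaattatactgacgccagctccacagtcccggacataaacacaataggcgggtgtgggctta
GGAA occurred 4 times upstream of Flt1, 2 times upstream of Tek, 3 times upstream of Gja5 and 6 times upstream of Clec14a. Of the members' windows 92% held it, beside 93.4% of 32851 windows of all genes, with a median of 3 in each set. ACAAAG stood in 24% of the members' windows and in 16.5% of all. The longer ETS form CAGGAAG, which contains GGAA, was in 24% (6 windows) and 10.8%, CCGGAAG in 4% and 6.91%, and the other SOX form ACAATG in 4% and 10.7%. The 4 longer forms were named with earlier results known, and GGAA was added after the first search. A match describes the letters of this window only.

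Of the 10 transcription factors, 4 were higher, 3 lower and 3 not called in the anterior shelf, and 3, 0 and 7 in the posterior shelf. The shares of all genes tested, 25.6% higher and 24% lower anteriorly and 17.3% and 11.7% posteriorly, stand beside these. Without the trend 2 factors were higher and 1 lower anteriorly, and 1 and 0 posteriorly, beside 16.1% and 16.7%, and 7.71% and 10.2%, of all genes. Erg, the ETS factor of endothelial identity, was the 1 factor higher in both parts in both fits. It went from 36.9, 33.5 and 36.7 to 46.8, 45.7 and 44.6 CPM anteriorly and from 33.0, 29.1 and 33.3 to 44.9, 39.6 and 42.7 CPM posteriorly (1.28-fold and 1.33-fold, adjusted p = 0.0014 and 0.0018). Its log2 fold changes of 0.36 and 0.42 were 0.41 and 0.42 without the trend. Ets1 was called higher in both parts (0.43 and 0.27), and was at 0.06 and 0.04 without the trend, called in neither. Fli1 rose anteriorly (0.23, adjusted p = 0.034) and stood at 0.07 without the trend.

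The 3 SoxF genes did not move alike. Sox17, the arterial member, fell from 13.9, 19.2 and 21.4 to 11.7, 11.5 and 11.0 CPM anteriorly (1.60-fold, adjusted p = 0.0014). The fall was kept without the trend (-0.68 to -0.53, adjusted p = 0.0066). Posteriorly, 12.6, 10.1 and 12.7 CPM in controls overlapped with 8.99, 11.8 and 11.3 CPM under tamoxifen, and no call was made (-0.14, adjusted p = 0.51). Sox18 fell anteriorly from 33.1 ± 3.35 to 25.4 ± 4.01 CPM (-0.38, adjusted p = 0.026) and had a value of 0.23 without the trend (adjusted p = 0.066). Sox7 gave no call in either part (0.07 and 0.20).

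Prox1 had the largest fold change of the members, from low levels. It stood at 5.15, 4.86 and 2.53 CPM in anterior controls and at 14.0, 9.80 and 10.5 CPM under tamoxifen (2.75-fold, adjusted p = 3.9e-05). Posteriorly it went from 4.84, 4.70 and 5.53 to 8.22, 8.25 and 8.01 CPM (1.62-fold, adjusted p = 0.019). At 7913 bases it has the second longest transcript of the members, after Vwf. Without the trend its log2 fold changes went from 1.46 to 0.84 anteriorly, still called (adjusted p = 0.0021), and from 0.70 to 0.29 posteriorly, not called (adjusted p = 0.28). Prox1 also marks other cells such as neural progenitors, and its exons overlap those of the antisense gene Prox1os. Flt4, the other lymphatic gene among the members, did not rise, and Lyve1, a hyaluronan receptor of lymphatic vessels and macrophages, was at 1.24 ± 0.176 and 2.03 ± 0.716 CPM anteriorly without a call (adjusted p = 0.064).

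Tal1, Lyl1 and Lmo2 work in blood as well as in vessels. Lyl1 fell anteriorly from 8.84, 9.36 and 10.9 to 5.89, 5.24 and 6.43 CPM (1.66-fold, adjusted p = 0.00039), and its log2 fold change went from -0.73 to -0.08 without the trend (adjusted p = 0.63). Its exons overlap those of Nfix on the other strand. Tal1 (0.0056 and -0.08) and Lmo2 (-0.21 and -0.03) gave no call.

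Of the 4 secreted proteins and enzymes, Egfl7, a matrix protein made by endothelium, fell from 58.2, 63.0 and 71.2 to 42.4, 36.7 and 40.5 CPM anteriorly (1.61-fold, adjusted p = 7.1e-05). Posteriorly the values were 61.8, 46.6 and 50.9 CPM and 43.9, 39.9 and 45.9 CPM (1.23-fold, adjusted p = 0.043). Without the trend the anterior fall was kept (-0.22, adjusted p = 0.031) and the posterior one was not (-0.05). An exon of Egfl7 overlaps the predicted gene Gm20532. Nos3, the endothelial nitric oxide synthase, fell from 24.9, 27.9 and 29.7 to 19.6, 17.9 and 20.0 CPM anteriorly (1.43-fold, adjusted p = 0.00057). That fall was kept without the trend (-0.27, adjusted p = 0.0075), and the posterior value gave no call (-0.20, adjusted p = 0.14). Nos3 shares exon sequence with Atg9b on the other strand. Esm1, at most at 2.49 CPM, gave no call.

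Vwf, the clotting factor stored in endothelial granules and platelets, was called higher in both parts. It went from 40.3, 41.5 and 42.3 to 57.3, 56.0 and 49.2 CPM anteriorly (1.31-fold, adjusted p = 0.0065) and from 19.1, 13.8 and 14.2 to 32.4, 28.1 and 30.4 CPM posteriorly (1.93-fold, adjusted p = 0.00022). Without the trend the anterior value was 0.16 and not called, and the posterior value 0.77 (adjusted p = 0.0014). The difference between both effects, -0.56 on the log2 scale, did not pass its own test (adjusted p = 0.22). Of 9 platelet markers tested, 1 was higher and 1 lower posteriorly as deposited, namely Thbs1 (0.51) and Gp1bb (-0.65). Without the trend Thbs1 was still called and Gp1bb was not (adjusted p = 0.13). Pf4 was at 2.40 ± 0.23 and 3.04 ± 0.319 CPM posteriorly with no call, and Itga2b at 5.75 ± 0.80 and 4.42 ± 0.391 CPM with no call (adjusted p = 0.12).

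**Figure D3:**
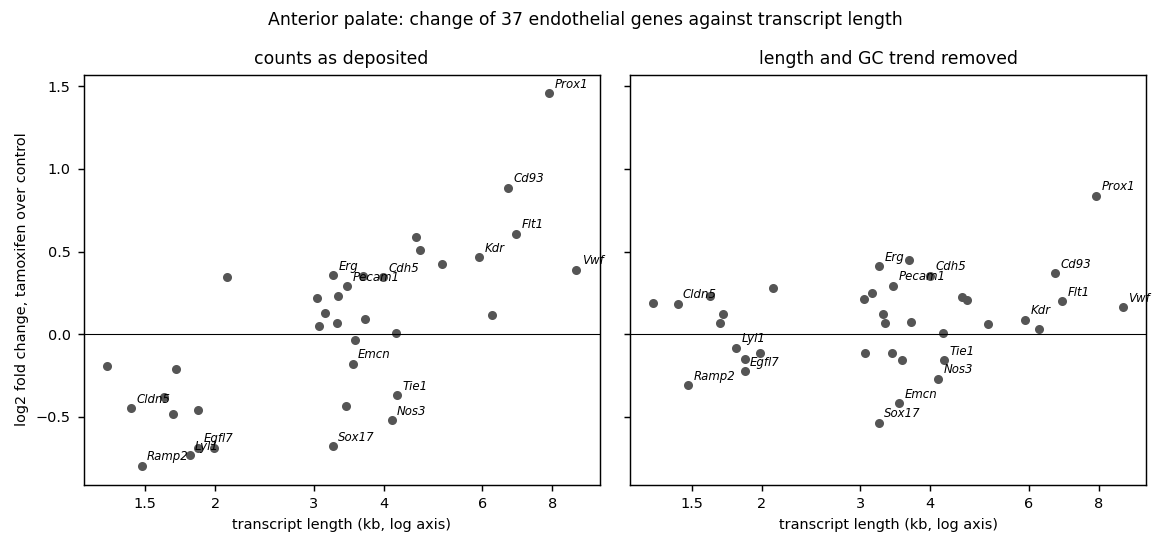
Log2 fold change of tamoxifen over control in the anterior palate (y axis) against transcript length (x axis, log scale) for the 37 endothelial genes (points), with the counts as deposited (left) and with the length and GC trend removed (right). The Spearman correlation over the points is 0.72 on the left and 0.19 on the right.

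Several calls were lost when a single library was left out. In the anterior shelf the call of Gja5 was lost without anterior control replicate 1 or anterior tamoxifen replicate 2 (adjusted p up to 0.0995). Those of Sox18 and Fli1 were lost without 3 libraries each. For Sox18 these were anterior control replicates 2 and 3 and anterior tamoxifen replicate 2 (adjusted p up to 0.114). For Fli1 they were anterior control replicate 3 and anterior tamoxifen replicates 2 and 3 (up to 0.118). S1pr1 lost its anterior call on leaving out any of 8 libraries and its posterior call on leaving out any of 7. These included libraries from the other part of the shelf. Posteriorly, the calls of Pecam1, Ets1 and Prox1 were each lost without 3 libraries. Posterior control replicate 1 was among these for each of the 3. The others were posterior control replicate 3 and posterior tamoxifen replicate 1 for Pecam1 (up to 0.0598), posterior control replicate 3 and posterior tamoxifen replicate 2 for Ets1 (up to 0.0725), and posterior control replicate 2 and posterior tamoxifen replicate 1 for Prox1 (up to 0.067). The 3 posterior falls were lost in this way as well. There, 0 members were called lower without posterior control replicate 1, posterior control replicate 3 or posterior tamoxifen replicate 1, and 1 without posterior tamoxifen replicate 2 or 3. Other calls under tamoxifen held without any of the 12 libraries. Eng was called lower anteriorly when anterior tamoxifen replicate 3 was left out (adjusted p = 0.019).

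The difference between the anterior and posterior effects of tamoxifen was tested for every member, and 0 were called, as were 0 of all 15958 genes (0% called). At an unadjusted p under 0.05 there were 10 members in edgeR, 9 in DESeq2 and 9 in limma-voom, beside 2110 genes in edgeR over all. Vwf had the smallest p of the members (0.0023, adjusted 0.22), followed by Ramp2 (0.0025, adjusted 0.22) and Lyl1 (0.0057, adjusted 0.27). Emcn, with values on opposite sides, had an adjusted p = 0.30 and Sox17 an adjusted p = 0.33. Calls present in the anterior and missing in the posterior shelf are therefore not shown to differ between the parts. Over all genes DESeq2 called 97 interactions upward and 86 downward, and 0 of them were members.

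Between anterior and posterior shelf of the controls, 5 members were higher and 6 lower anteriorly, beside 10.2% and 13.1% of all genes tested. With the trend removed these were 5 and 7, beside 14.4% and 12.5%. Vwf had the largest difference, at 40.3 to 42.3 CPM anteriorly and 13.8 to 19.1 CPM posteriorly (2.63-fold higher anteriorly, adjusted p = 1.1e-07). Lyl1 (1.57-fold), Sox17 (1.54-fold), Gja4 (1.32-fold) and Esam (1.18-fold) were also higher anteriorly. Sox17 stood at 13.9, 19.2 and 21.4 CPM against 12.6, 10.1 and 12.7 CPM. Gja4 overlapped between the parts, at 20.0, 23.5 and 28.3 CPM against 20.9, 15.9 and 17.7 CPM. Its call was lost without anterior control replicate 2 or 3 or posterior control replicate 2 or 3, and that of Esam without 11 of the 12 libraries and without the trend (adjusted p = 0.11). Without any of the 4 libraries named for Gja4, 3 members were called higher.

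On the posterior side stood Fli1, Flt4, Cd34, Cd93, Ets1 and Kdr. Fli1 was at 16.2, 15.8 and 14.3 CPM anteriorly and at 34.5, 31.6 and 31.3 CPM posteriorly (2.10-fold, adjusted p = 1.1e-07). Flt4 was at 28.3, 28.6 and 24.5 CPM against 41.9, 39.5 and 41.2 CPM (1.51-fold, adjusted p = 0.00012). Cd34, a sialomucin of endothelium and of fibroblast-like and blood progenitor cells, was at 48.4 to 50.7 CPM against 69.1, 76.8 and 72.7 CPM (1.47-fold, adjusted p = 2.2e-05). For Fli1, Flt4 and Cd34 the parts did not overlap. Exons of Cd34 overlap those of Gm16897 on the other strand. Cd93 was 1.30-fold, Ets1 1.28-fold and Kdr 1.28-fold higher posteriorly. With the trend removed, 10 of the 11 regional calls were kept. Over all genes the share of regional calls kept was not counted. Kdr (adjusted p = 0.0019, and 0.013 without the trend) was the 1 general marker with a regional call in controls. Pecam1, Cdh5, Flt1, Tek and Tie1 gave none, with log2 fold changes of -0.15, -0.16, -0.19, -0.08 and 0.06 (SE 0.075 to 0.097, smallest adjusted p = 0.125). Leaving out 1 library brought 3 further members under the threshold in controls. These were Cdh5 without anterior tamoxifen replicate 2, Egfl7 without posterior control replicate 1 and Ramp2 without anterior control replicate 3.

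Under tamoxifen 1 member was higher and 5 lower in the anterior shelf, beside 7.6% and 10.2% of all genes tested. Vwf was again higher anteriorly (1.79-fold), and Fli1 (1.95-fold), Flt4 (1.30-fold) and Cd34 (1.40-fold) were again higher posteriorly. Sox7 (1.27-fold) and Ramp2 (1.66-fold, 23.7 to 27.1 CPM against 38.0 to 46.4 CPM) were added to these. The 6 calls were kept without the trend, and 1 member was then higher and 8 lower, beside 13.8% and 10.9% of all genes, with Emcn, Ets1 and Cd93 joining the posterior side. The call of Sox7 was lost without anterior tamoxifen replicate 2 or posterior tamoxifen replicate 2 or 3 (adjusted p up to 0.0862). Ets1, Nos3 and Prox1 came under the threshold without anterior tamoxifen replicate 2, posterior tamoxifen replicate 1 and anterior control replicate 3, respectively. Vwf, Fli1, Flt4 and Cd34 were thus called in the same direction in both comparisons. These compare different libraries but share 1 fit and its estimate of spread. The share of all genes called in the same direction in both was not counted, nor was the share of their regional calls kept without the trend.

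**Figure D4:**
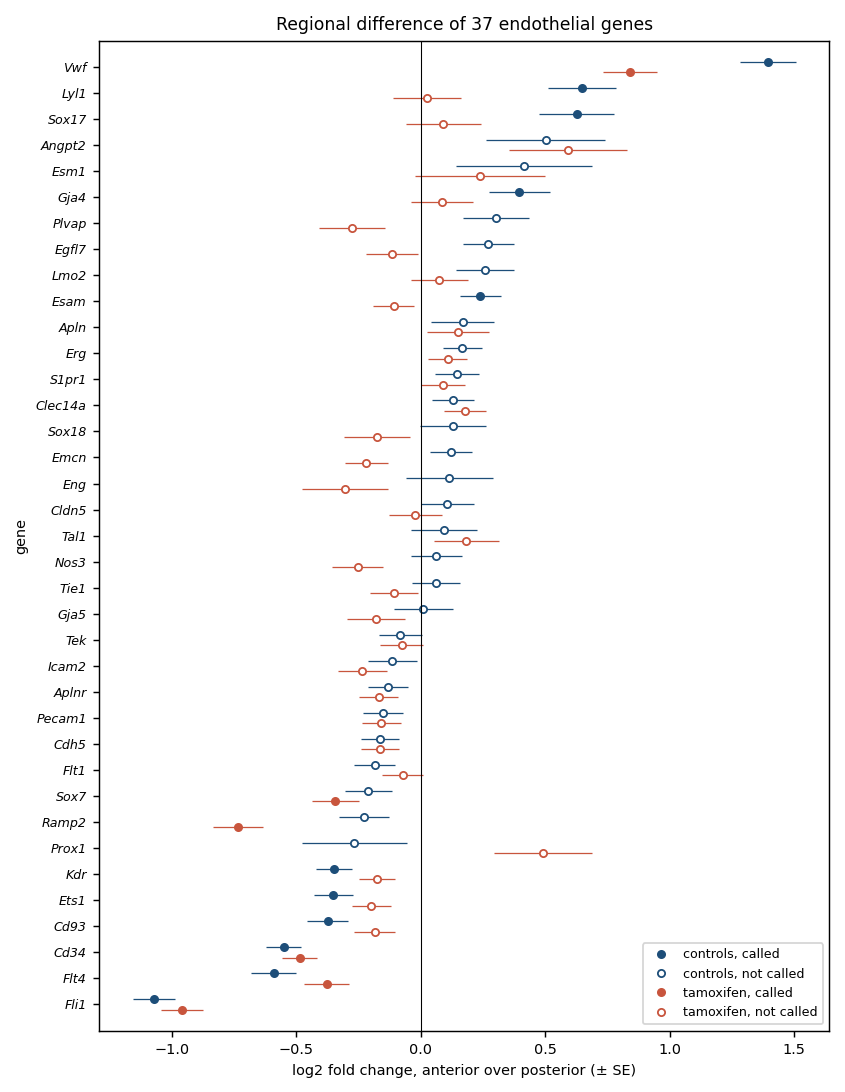
Log2 fold change of anterior over posterior palate (x axis, bars are SE) for the 37 endothelial genes, in controls (blue) and under tamoxifen (red), ordered by the value in controls. Filled points passed the test. Vwf lies at the anterior end and Fli1, Flt4 and Cd34 at the posterior end in both colours.

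Ligands and partners of the members' receptors were read from a list of 17 VEGF and angiopoietin genes, of which 16 were tested. Anteriorly 8 were higher and 6 lower under tamoxifen (50% and 37.5%), and 7 and 3 without the trend (43.8% and 18.8%). Posteriorly 7 were higher and 3 lower (43.8% and 18.8%), and 4 and 1 without the trend (25% and 6.25%). Of all genes tested, 25.6% were higher and 24% lower anteriorly, and 17.3% and 11.7% posteriorly. Without the trend these shares were 16.1% and 16.7%, and 7.71% and 10.2%. Angpt1, the activating ligand of Tek made by surrounding mesenchyme, went from 50.3 ± 7.50 to 90.4 ± 7.88 CPM anteriorly and from 42.3 ± 3.31 to 62.6 ± 5.50 CPM posteriorly. Its log2 fold changes of 0.85 and 0.57 were 0.48 and 0.34 without the trend, called in each case. Ptprb, the phosphatase that restrains Tek, rose by 0.95 and 0.64 on the log2 scale, and had values of 0.27 (called) and 0.20 (adjusted p = 0.15) without the trend. Vegfa, the main ligand of Kdr and Flt1, stood at 103 ± 2.11 and 106 ± 21.9 CPM anteriorly and at 114 ± 10.8 and 118 ± 15.4 CPM posteriorly, without a call in either part or fit. Hif1a, which encodes an oxygen-regulated factor, rose by 0.81 and 0.57, and by 0.37 and 0.30 without the trend.

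In a list of 22 Notch, BMP and arteriovenous genes, 20 were tested. Of these, 3 were higher and 7 lower anteriorly (15% and 35%), and 6 and 0 posteriorly (30% and 0%). Without the trend these were 5 and 3 (25% and 15%), and 4 and 2 (20% and 10%). Dll4, the Notch ligand of arterial and tip cells, gave no call under tamoxifen, at 10.1 to 11.5 CPM in the 4 group means. Nr2f2, a factor of veins that palatal mesenchyme can also express, was lower anteriorly under tamoxifen (-0.28, and -0.57 without the trend, called in both). Of a further 30 vessel genes, 28 of them tested, 6 were higher and 5 lower anteriorly (21.4% and 17.9%), and 8 and 1 posteriorly (28.6% and 3.57%). Without the trend these were 5 and 3 (17.9% and 10.7%), and 4 and 0 (14.3% and 0%). Beside both lists, 25.6% of all genes tested were higher and 24% lower anteriorly, and 17.3% and 11.7% posteriorly. Without the trend these shares were 16.1% and 16.7%, and 7.71% and 10.2%. Adgrf5, an adhesion receptor of capillaries, rose by 0.86 and 0.70, and by 0.24 and 0.31 without the trend, called in each case. Between the parts in controls, Efnb2 (-1.34) and Nr2f2 (-0.90) were higher posteriorly and Gata2 (2.21) anteriorly, 3 genes of vessels that other palatal cells can express as well.

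Markers of other cells were present in every group. Their counts of calls stand beside 25.6% of all genes tested higher and 24% lower anteriorly, and 17.3% and 11.7% posteriorly. Without the trend these shares were 16.1% and 16.7%, and 7.71% and 10.2%. The summed level of 13 mural cell markers was 838 to 872 CPM in anterior controls and 742 to 944 CPM under tamoxifen, and 923 to 954 CPM and 962 to 1143 CPM posteriorly. Rgs5, a pericyte marker, rose from 5.82 ± 0.64 to 11.9 ± 2.49 CPM posteriorly (2.05-fold, adjusted p = 0.00056, and 0.82 on the log2 scale without the trend), and Kcnj8 2.57-fold. Posteriorly 4 of 13 mural markers were higher and 0 lower, and 6 and 0 without the trend. Anteriorly these were 2 and 4, and 1 and 0. Most of the mural sum was Pdgfrb (257 to 339 CPM in the group means) and Notch3 (261 to 329 CPM). Des is in both this list and that of skeletal muscle markers. Its group means were 4.33 (controls) and 3.00 CPM (tamoxifen) anteriorly, and 44.7 and 56.0 CPM posteriorly. What part muscle cells have in the mural counts was not tested. Pdgfrb, which palatal mesenchyme also makes, gave no call under tamoxifen. The 14 leukocyte markers summed to 114 to 127 CPM and 104 to 143 CPM anteriorly, and 102 to 108 CPM and 109 to 129 CPM posteriorly, with Ptprc at 1.15 to 2.72 CPM in the 4 group means. Of these, 5 were higher and 3 lower anteriorly and 3 and 0 posteriorly, and 3 and 0 and then 2 and 0 without the trend. The 10 megakaryocyte and platelet markers summed to 108 to 112 CPM and 143 to 172 CPM anteriorly, and 163 to 175 CPM and 201 to 255 CPM posteriorly, without overlap in either part. Most of that sum was Thbs1 (88.3 to 216 CPM in the group means), which other cells make too. Of the 9 tested, 1 was higher and 2 lower anteriorly and 1 and 1 posteriorly, and 1 and 0 in each part without the trend. Gp1bb, a platelet glycoprotein, fell from 6.32, 6.70 and 7.99 to 3.33, 2.57 and 4.57 CPM anteriorly and from 5.75 ± 0.973 to 3.68 ± 0.197 CPM posteriorly. The 16 erythroid markers summed to 859 to 1258 CPM and 610 to 985 CPM anteriorly, and 800 to 940 CPM and 712 to 765 CPM posteriorly. Their embryonic globin Hbb-y stood at 562 to 757 CPM in the group means, 6 adult globin symbols were at or near 0, and 2 of 10 tested were lower anteriorly and 0 posteriorly. Without the trend 1 was higher and 1 lower anteriorly and 0 were called posteriorly.

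Markers of cell types apart from vessels and blood were also called under tamoxifen. The same shares of all genes tested stand beside these counts. Of 12 epithelial markers, 5 were higher and 1 lower anteriorly and 6 and 0 posteriorly, and 4 and 0 and then 3 and 0 without the trend. Their sums overlapped, at 1010 to 1260 CPM and 1005 to 1258 CPM anteriorly and at 612 to 684 CPM and 676 to 880 CPM posteriorly. Of 10 nerve markers, 4 were higher and 1 lower anteriorly and 4 and 0 posteriorly, and 4 and 1 and then 3 and 0 without the trend. The nerve sum was 122 to 150 CPM and 137 to 173 CPM anteriorly, and did not overlap posteriorly, at 156 to 167 CPM and 202 to 256 CPM. The 10 skeletal muscle markers were low in the anterior shelf (9.07 to 33.2 CPM in sum), where 0 were higher and 4 lower, and 0 and 1 without the trend. Posteriorly their sum did not overlap either, at 703 to 793 CPM and 854 to 1161 CPM, with 1 higher and 0 lower, and 3 and 0 without the trend. Of 12 palatal mesenchyme markers, 3 were higher and 3 lower anteriorly and 2 and 1 posteriorly, and 1 and 0 and then 1 and 1 without the trend. The share of members called higher posteriorly, 35.1%, stood beside 50% of the epithelial, 40% of the nerve and 30.8% of the mural cell markers. Shares were lower for leukocyte (21.4%), palatal mesenchyme (16.7%), platelet (11.1%), skeletal muscle (10%) and erythroid markers (0%), beside 17.3% of all genes. Without the trend the members were at 27%, mural cell markers at 46.2%, nerve and muscle markers at 30% each and epithelial markers at 25%. Leukocyte, platelet, mesenchyme and erythroid markers were then at 14.3% or less, beside 7.71% of all genes. The order was not the same anteriorly. As deposited, 37.8% of members were higher there, beside 41.7% of epithelial, 40% of nerve and 35.7% of leukocyte markers. Mesenchyme markers were at 25%, mural at 15.4%, platelet at 11.1%, and muscle and erythroid at 0%, beside 25.6% of all genes. What part any of these cell types has in the members' values was not tested.

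The tested genes outside all lists whose log2 CPM ran most like the mean profile of Pecam1, Cdh5, Kdr, Tek and Tie1 over the 12 libraries were Xkr4, Ptpra, Dag1, Zfp324 and Usp22. Their Pearson correlations were 0.97, 0.96, 0.96, 0.96 and 0.96. The averaged genes did not all run alike. Pecam1, Cdh5, Kdr and Tek correlated with the profile at 0.88, 0.95, 0.90 and 0.72, but Tie1 at -0.63. The 12 points share the treatment groups and the length trend, so this is a description of these libraries. Total counts per library ranged from 39.4 to 50.2 M, apart from anterior tamoxifen replicate 1 with 73.0 M, and each pair of replicates differed beyond sampling noise.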

How the data were processed

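RNA-seq of 12 libraries was analysed. Each deposited file holds raw counts per gene symbol, without normalization, per the file headers and values. Per the submitters' processing notes, HISAT2, StringTie and build mm9 were used. Not given in the sources used here are tool versions, counting program, annotation and strandedness. The share of even numbers among counts of 1 to 100 was 57.1 to 60.1%.

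Tests used R 4.3.3 and edgeR 4.0.16: filterByExpr, TMM scaling and a quasi-likelihood fit (robust) of all 12 libraries, each group with its own mean (8 residual degrees of freedom). P-values were adjusted over all 15958 genes tested, with calls under 0.05. Standard errors were taken from the fold change and the F statistic. Exact tests of 3 against 3 cannot give a p under 0.1, so levels carry none. Each symbol took the length and GC content of its longest transcript in GENCODE M21 (23348 symbols matched, 651 by an older symbol). Their trend (natural splines with 4 degrees of freedom each, fitted per library where the mean log2 CPM exceeded 1) was removed as an offset.

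The members, lists, rule for named genes and alternatives were chosen with earlier results of these data known. All members could be named, with values per library for 6 general markers and up to 8 called members per comparison. Other lists could give their 3 smallest adjusted p and set markers. Lyve1 and members outside the rule were named after their values were seen. Alternatives were DESeq2 1.42.0, limma-voom (limma 3.58.1), RLE scaling, other filters, counts divided by 2, 6 libraries alone, the replicate number as a block and leaving out each library. Scripts were tested on simulated data.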

Additional observations from a re-analysis of the deposited data

How the results depend on the processing

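With the length and GC trend removed, 5 members in place of 11 were lower under tamoxifen anteriorly, 1 in place of 3 posteriorly and 0 in place of 3 in both parts, and 8 in place of 5 were lower in the anterior shelf under tamoxifen. With the trend removed and a replicate block, 9 members in place of 14 were higher and 5 lower anteriorly, 0 were lower posteriorly, 8 in place of 13 were higher and 0 lower in both parts, and 8 were lower in the anterior shelf under tamoxifen. Over all 37 members the sign turned with the trend removed for 6 anteriorly, 9 posteriorly, 9 in the interaction, 3 between the parts in controls and 2 under tamoxifen, and 0 of these were called without the trend. Among the 70 single-gene results followed under every alternative, signs turned for Sox18 (0.23 in each of these fits), Cldn5 (0.18 and 0.19) and Gja4 (0.07 and 0.06) anteriorly and Cldn5 posteriorly (0.0067 and 0.0061). The same held for Tek in controls (0.016 and 0.017) and Tie1 under tamoxifen (0.037 and 0.040) between the parts. Tie1 between the parts in controls ranged from -0.026 (without anterior control replicate 3) to 0.099 (without anterior control replicate 1). The cause was not tested.

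Under DESeq2, limma-voom, RLE scaling, the other filters, halved counts, the 6 libraries alone and the block alone, every count of members stayed within 1.5 times the main count. Leaving out single libraries gave 12 to 14 members higher and 10 to 12 lower anteriorly, 9 to 13 and 0 to 3 posteriorly, 9 to 13 and 0 to 3 in both parts, and 0 for the interaction. Between the parts it gave 3 to 6 higher and 6 to 7 lower in controls, and 1 to 2 and 4 to 6 under tamoxifen. This was run with the counts as deposited only. Same-numbered replicates showed no clear pairing: of 18 pairs of deviations from group means, 2 correlated above 0.1 (-0.06 to 0.15). Both lay between anterior and posterior tamoxifen libraries, for replicate 1 (0.15) and replicate 3 (0.14). Of 12 libraries, 6 correlated best with their own number. Whether the parts came from the same embryos is not settled by these values. With the block alone, 68 of 70 single-gene results stayed on their side of the threshold, and the calls of S1pr1 (anterior, adjusted p = 0.066) and Esam (controls, 0.065) were lost. Over all members the block also added calls of Eng (anterior, 0.033) and Egfl7 (controls, 0.046). Depth limits Esm1 and Angpt2, with lowest counts of 42 and 45.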
